A study of Rattus norvegicus with 9 samples.

Results

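The Reg genes encode small secreted proteins with a C-type lectin fold, and their messenger RNA was followed here in pancreatic islets of Zucker Diabetic Fatty (ZDF) rats. The family was taken as 5 genes, Reg1a, Reg3a, Reg3b, Reg3g and Reg4, and its probe sets were those that the array's annotation names for them. Of the 5 genes, 4 had a probe set, 1 each, among 31042 probe sets and 14217 named genes. Reg4 had no probe set named for it and was not analysed here. The genes were chosen by earlier results of these data, in which Reg3g stood among the largest differences between treated and untreated rats and the treated arrays varied widely. Differences of the Reg genes that involve the treated arrays are therefore given as a description, and where a count past limma's threshold is printed for them, nothing is read from it. Withdrawal minus untreated was not used for the choice, but it shares the untreated arrays with the comparison that was. Low values on those arrays would raise both differences, so its p-values are not an independent test of the chosen genes.

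All rats were male, carried the fa/fa genotype (a defect of the leptin receptor that makes them obese) and ate the Purina 5008 diet. The study randomised 24 rats at 5 weeks of age, and 9 arrays of islet RNA were analysed, 3 in each of 3 groups. Treated rats received rosiglitazone, which activates the nuclear receptor PPAR-gamma, as powdered Avandia tablets in the diet at 3 mg per kg of body weight from week 5 to week 9, and their islets were taken at 9 weeks. Withdrawal rats had the same drug over the same weeks, then 2 weeks without it, and their islets were taken at 11 weeks. Untreated control rats never received the drug, and their islets were taken at 13 weeks. Each group thus had an age of its own, and treatment and age cannot be told apart in any comparison. Lean rats and untreated ZDF rats of the other ages were not analysed here. The labels call the 3 arrays of a group biological replicates without saying how many animals gave the RNA of each.

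Reg proteins are made in quantity by the acinar cells of the exocrine pancreas, and their genes are known for their induction in pancreatitis and in damaged or regenerating islets. Reg3b and Reg3g are also made by intestinal epithelium, where the lectin domain binds bacterial cell walls. Reg3b is also known as pancreatitis-associated protein. Cytokines of the interleukin-6 and interleukin-22 families switch the genes on through the transcription factor STAT3, and EXTL3 has been described as a receptor for Reg proteins on target cells.

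The arrays were of similar brightness, with medians between 5.74 and 5.81 on the log2 scale of the deposited values. Their spread over probe sets was wider on the treated arrays (SD 1.84 to 2.00) than on the withdrawal (1.65 to 1.72) and untreated arrays (1.66 to 1.77). The islet label was borne out by the insulin genes Ins1 and Ins2, which lay between 14.07 and 14.36 on every array. Acinar RNA was also plentiful on every array, since Ctrb1, which encodes the digestive enzyme chymotrypsinogen, lay between 14.17 and 14.27. Bulk RNA cannot tell a change in the number of cells that make a Reg protein from a change in the RNA of each cell.

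Reg3g showed the widest movement. Its values were 9.38, 9.46 and 9.42 on withdrawal arrays 1, 2 and 3, against 5.44, 5.82 and 5.30 on untreated arrays 1, 2 and 3. The groups did not overlap, and the whole withdrawal range of 0.09 was small beside the distance to the untreated arrays. The untreated values were near the median brightness of their arrays, between the 40.8th and 50.6th percentile, while the withdrawal values lay between the 97.2nd and 97.8th percentile. Withdrawal exceeded untreated by 3.90 ± 0.92 on the log2 scale (SE, n = 3 arrays a group), a 14.9-fold difference with a 95% interval of 1.90 to 5.90 on the log2 scale. No other probe set of the 20695 tested differed by more in the higher direction in this comparison. In limma's fit of all 9 arrays the difference had an adjusted p of 0.193, with an unadjusted p of 0.00115, and was not called at the threshold of 0.05.

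**Figure D1:**
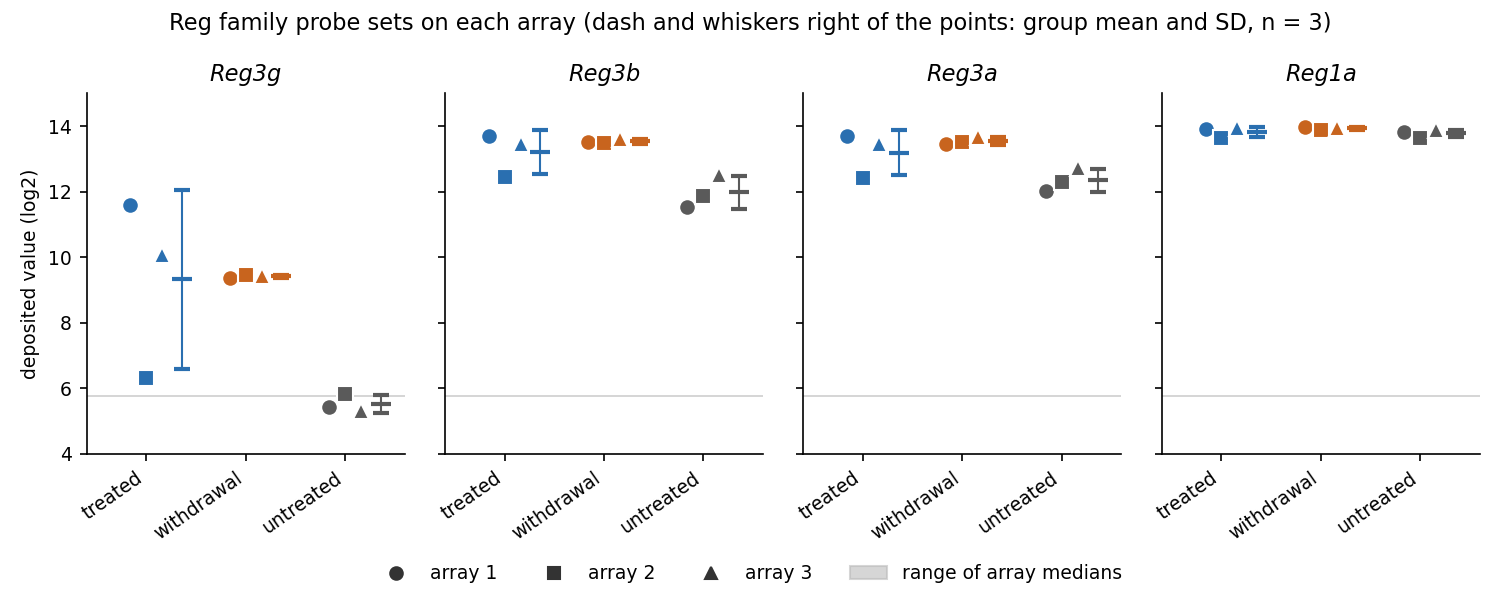
Deposited log2 value (vertical axis) of each Reg probe set on each of the 9 arrays, by group, with the group mean and SD (n = 3) drawn to the right of the points and the range of array medians as a grey band. Reg3g lies between 5.30 and 5.82 on the untreated arrays and between 9.38 and 9.46 on the withdrawal arrays, while the treated arrays run from 6.31 to 11.59.

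The lack of a call moved with which arrays set the spread. The treated arrays, which take no part in this difference, gave Reg3g a residual SD of 1.58 in the fit of all 9 arrays, and that SD was 0.19 when the fit held only the withdrawal and untreated arrays, 6 in all. In limma's fit of those 6 arrays the same difference of 3.90 had an SE of 0.13, a 95% interval of 3.62 to 4.18 and an adjusted p of 3.25e-10. It stayed between 3.79 and 4.05 when any 1 of the 6 arrays was left out of that fit, with adjusted p-values from 3.55e-13 to 1.17e-07. Leaving only treated array 2 out of the full set of arrays gave Reg3g an adjusted p of 0.000201 by limma, leaving out only treated array 1 gave 0.00100, and leaving out only treated array 3 gave 0.298. Reg3b and Reg3a were likewise called without treated array 1 (limma adjusted p 0.00148 and 0.00633) and without treated array 2 (0.0102 and 0.0152). The 3 withdrawal arrays had an SD of 0.04 for Reg3g, below the median SD of 0.14 over 500 probe sets of like brightness, and after quantile normalization the SD was 0.14, so the closeness of the 3 values depended on the scaling.

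Reg3b was 13.50, 13.49 and 13.61 on withdrawal arrays 1, 2 and 3 and 11.54, 11.88 and 12.52 on untreated arrays 1, 2 and 3. Every withdrawal array was above every untreated array. The untreated arrays were unequal, with an SD of 0.50 that ranked 42nd of the 20695 probe sets. The difference was 1.55 ± 0.30 (SE, 95% interval 0.90 to 2.21, n = 3 arrays a group), or 2.94-fold, with an adjusted p of 0.0972 in limma's fit of all 9 arrays and 0.000357 in its fit of the 6 arrays compared.

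Reg3a was 13.47, 13.52 and 13.69 on the withdrawal arrays and 12.04, 12.28 and 12.74 on the untreated arrays, each in the order 1, 2 and 3. These groups did not overlap either. The difference was 1.20 ± 0.28 (SE, 95% interval 0.59 to 1.82, n = 3 arrays a group), or 2.30-fold, with an adjusted p of 0.193 in limma's fit of all 9 arrays and 0.000581 in its fit of the 6 arrays compared. Reg3a and Reg3b ran together over the 9 arrays, with a Pearson correlation of 0.987 and a Spearman correlation of 0.95 as a description. Whether each probe set reads only its own gene was not tested, so values of these close relatives are uncertain where they share sequence.

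Reg1a, the acinar lithostathine of the family, differed little. It was 13.97, 13.87 and 13.96 on the withdrawal arrays and 13.81, 13.65 and 13.88 on the untreated arrays, and the groups overlapped. The difference was 0.15 ± 0.12 (SE, n = 3 arrays a group), with a 95% interval of -0.12 to 0.43 and an adjusted p of 0.851 in limma's fit of all 9 arrays. All 9 arrays placed Reg1a near the top of their scale, whose highest values were 14.17 to 14.36, so a difference in its RNA could have gone unmeasured.

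Counted over the family, 0 of the 4 probe sets were called between withdrawal and untreated arrays in limma's fit of all 9 arrays, in which 0.159% of all probe sets tested were called and 0.00483% were called higher, and 3 of the 4 had an unadjusted p under 0.05, against 7.5% of all. In the fit of the 6 arrays compared, Reg3g, Reg3b and Reg3a were called higher, where 0.831% of all probe sets were called higher and 1.56% lower. The withdrawal arrays lay wholly above the untreated arrays for those 3 probe sets, as they did for 7.65% of all. The median difference of the 4 probe sets was 1.38, and over all probe sets tested it was -0.02.

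**Figure D2:**
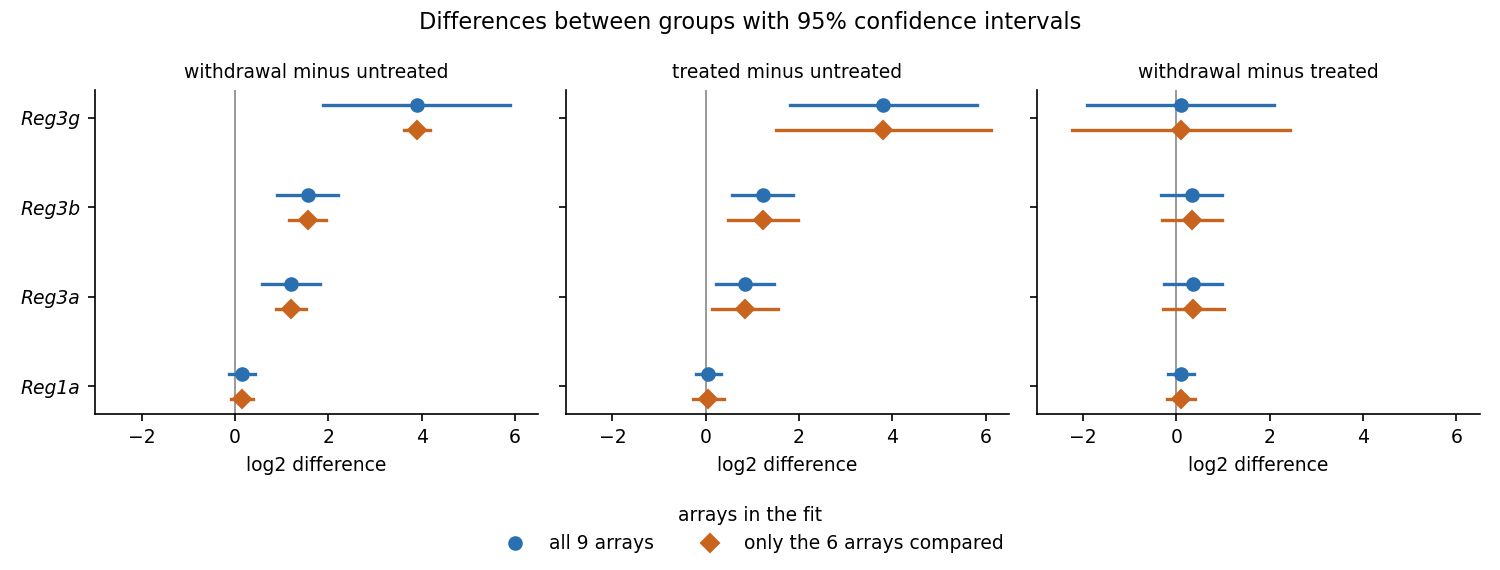
Log2 difference (horizontal axis) of each Reg probe set in the 3 comparisons, with 95% intervals from limma for the fit of all 9 arrays and for the fit of only the 6 arrays compared. For Reg3g the withdrawal-minus-untreated difference is 3.90 in both fits, and its interval narrows from 1.90 to 5.90 down to 3.62 to 4.18.

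The 4 genes measured lie close together on chromosome 4 in RefSeq's annotation of the GRCr8 assembly. Reg3b comes first, then a Reg3b pseudogene, Reg3a, Reg1a, a long noncoding RNA and Reg3g, and Reg4 lies apart on chromosome 2. The 250 bases before the annotated start of each measured gene are printed because Reg3g, Reg3b and Reg3a differed together while their neighbour Reg1a hardly did. They are from RefSeq, GRCr8, 5′ to 3′ on the strand of the gene, and cover chr4:112484739-112484988 on the minus strand for Reg3g and, on the plus strand, chr4:112419526-112419775 for Reg3b, chr4:112430147-112430396 for Reg3a and chr4:112450216-112450465 for Reg1a. Capitals mark TATAAA, the letters TTCNNNGAA of a STAT element and the letters TTGCNNAA of a C/EBP element.
Reg3g: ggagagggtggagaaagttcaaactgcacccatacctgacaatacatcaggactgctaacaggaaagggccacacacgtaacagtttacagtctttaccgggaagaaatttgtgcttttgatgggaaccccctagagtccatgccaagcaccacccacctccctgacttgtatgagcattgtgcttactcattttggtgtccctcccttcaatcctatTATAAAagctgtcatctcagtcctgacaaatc
Reg3b: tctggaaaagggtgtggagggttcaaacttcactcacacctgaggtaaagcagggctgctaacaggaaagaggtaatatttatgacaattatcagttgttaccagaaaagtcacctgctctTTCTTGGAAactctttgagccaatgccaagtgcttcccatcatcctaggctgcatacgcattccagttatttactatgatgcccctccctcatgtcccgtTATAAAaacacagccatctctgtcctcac
Reg3a: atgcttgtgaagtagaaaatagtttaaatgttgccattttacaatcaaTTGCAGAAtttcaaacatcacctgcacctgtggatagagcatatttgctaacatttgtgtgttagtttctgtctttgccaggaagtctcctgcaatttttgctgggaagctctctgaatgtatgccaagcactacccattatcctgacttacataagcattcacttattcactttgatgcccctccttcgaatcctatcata
Reg1a: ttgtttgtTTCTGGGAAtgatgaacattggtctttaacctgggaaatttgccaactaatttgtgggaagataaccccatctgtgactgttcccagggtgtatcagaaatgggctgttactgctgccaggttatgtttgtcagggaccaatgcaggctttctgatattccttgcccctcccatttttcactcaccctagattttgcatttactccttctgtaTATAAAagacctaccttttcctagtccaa

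TATAAA on the plus strand stood 29 to 24 bases before the start of Reg1a and Reg3b and 32 to 27 bases before that of Reg3g, and 12.9% of 33469 promoters of the same length hold it on either strand. TTCNNNGAA, which reads the same on both strands, was found in Reg3b at 129 to 121 bases and in Reg1a at 242 to 234 bases before the start, and 7.67% of promoters hold it. TTGCNNAA was found in Reg3a alone of the 4, at 202 to 195 bases before the start, and 9.22% of promoters hold it on either strand. Reg3a has another annotated start, with the window chr4:112430174-112430423, in which this site lies 229 to 222 bases before the start and TATAAA is also absent. The printed window and the alignments use the start of the annotated gene, and positions and identity for Reg3a depend on that choice. The direct repeat read by PPAR and its partner RXR, AGGTCA 2 times with 1 base between, was searched on both strands and was in none of these 4 windows and in 0.0508% of promoters. Its unit AGGTCA alone was in none of the 4 and in 14.1%. Base by base, Reg3b and Reg3g were the most alike pair, with 68.8% of the 250 bases identical in an alignment, and Reg1a shared 58.8% to 62.8% with the others. Unrelated promoters were not aligned in the same way, so how far these identities exceed theirs is not known. These matches describe letters and were not tied to the measured values.

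Among the treated arrays Reg3g spanned almost the whole range seen in the study. It was 11.59 on treated array 1, 6.31 on treated array 2 and 10.08 on treated array 3, a 38.8-fold range, and its SD of 2.72 was the highest of the 20695 probe sets tested. Treated array 2 was nearest the untreated arrays, and treated array 1 was above every other array. Reg3b followed the same order, at 13.71, 12.44 and 13.47 on treated arrays 1, 2 and 3, with array 2 inside the untreated range. Reg3a was 13.71, 12.41 and 13.47 and again had array 2 inside the untreated range. Reg1a was 13.92, 13.66 and 13.93, and its lowest treated value was likewise array 2. All 4 probe sets therefore placed treated array 2 lowest of the treated arrays.

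As differences from the untreated arrays, the treated means were higher by 3.81 ± 0.92 (SE) for Reg3g, 1.22 ± 0.30 for Reg3b, 0.84 ± 0.28 for Reg3a and 0.06 ± 0.12 for Reg1a, on the log2 scale with n = 3 arrays a group. These values took part in the choice of the genes, so the counts only describe them. In limma's fit of all 9 arrays, 3 of the 4 lay past the threshold, where 20.9% of all probe sets were called higher and 7.24% lower, and after quantile normalization 1 of the 4 was, against 7.75%. Only Reg3g had groups that did not overlap, as 31.2% of all probe sets did in that direction. Without treated array 2 the Reg3g difference was 5.32, and with each of the other arrays left out in turn it went down to 2.68.

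The withdrawal and treated means could not be set in order. For Reg3g they were 9.42 and 9.33, and withdrawal minus treated was 0.09 ± 0.92 (SE, n = 3 arrays a group), with a 95% interval of -1.91 to 2.10. The differences were 0.33 ± 0.30 for Reg3b, 0.36 ± 0.28 for Reg3a and 0.10 ± 0.12 for Reg1a. As a description, in limma's fit of all 9 arrays 0 of the 4 lay past the threshold, where 11.2% of all probe sets were called higher and 32.6% lower, and 0 of the 4 had an unadjusted p under 0.05, against 52.3% of all. The sign rested on treated array 2, without which Reg3g was -1.42, Reg3b -0.05 and Reg3a -0.03. The order of the group means was thus untreated lowest for Reg3g, Reg3b and Reg3a, with treated and withdrawal not separated beyond their spread.

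The genes of the signalling pathway upstream of the Reg family were also compared between withdrawal and untreated arrays. Of 31 genes of STAT3 cytokine signalling tested, 0 were called in limma's fit of all 9 arrays, where 0.159% of all probe sets were. In its fit of the 6 arrays compared 0 were called, where 0.831% of all were called higher and 1.56% lower. These counts lie near the shares over all probe sets, so nothing is read from them. The median difference of the 31 genes was 0.05, against -0.02 over all probe sets. Socs3, a STAT3 target that shuts the pathway off, was 6.61, 7.12 and 7.08 on the withdrawal arrays and 6.42, 6.69 and 6.53 on the untreated arrays, which overlap. Stat3 itself differed by 0.02 and Extl3, the receptor, by -0.21 (limma adjusted p 0.996 and 0.795). Between treated and untreated arrays 9 of the 31 were called higher, where 20.9% of all probe sets were, and 0 lower, with a median of 0.27 against 0.16 over all probe sets. After quantile normalization 1 of the 31 was called higher, where 7.75% of all were. As deposited, the treated-minus-untreated difference was 1.75 for Nfkbiz, a nuclear modulator of NF-kappa-B, 1.07 for Cebpb, a C/EBP factor, and 0.69 for Il6st, the receptor chain shared by interleukin-6 cytokines. Il6 was too dim to be tested, at 6.67 on treated array 1, the array with the highest Reg3g, and between 3.95 and 4.88 on the other 8 arrays.

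Acute phase and pancreatic injury genes, with which Reg genes are usually listed, differed in part. Of 36 tested, 0 were called between withdrawal and untreated arrays in limma's fit of all 9 arrays, and 13 were called higher and 0 lower in its fit of the 6 arrays compared, where 0.831% of all probe sets were called higher. Their median difference was 0.32 against -0.02 over all probe sets, and 19 of the 36 had withdrawal arrays wholly above untreated arrays, as 7.65% of all did. Nupr1, a stress-induced chromatin protein of pancreatitis, was higher by 0.89, and Clu, which encodes the secreted chaperone clusterin, by 0.72 (limma adjusted p 0.015 and 0.013 in the fit of 6 arrays, 0.462 and 0.41 in the fit of 9). Lcn2, an acute phase lipocalin, differed by 0.19 (adjusted p 0.477 in the fit of 6 arrays). Treated array 2 was the lowest treated array for 29 of these 36 genes, as it was for the Reg probe sets. How often it was the lowest over all probe sets was not counted, so the order may not be particular to these genes.

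The genes whose profile over the 9 arrays was most like the mean Reg profile were taken from 172 genes with a range of at least 2 on the log2 scale. The mean profile centred each Reg gene without scaling it, so Reg3g, which had the widest range, weighed most in it and Reg1a least. The 10 nearest were Postn (Pearson r = 0.972), Tagln (0.962), C3 (0.962), Hamp (0.956), Akr1b8 (0.953), Lgals1 (0.946), Tnc (0.935), Timp1 (0.935), Clec10a (0.93) and Hmox1 (0.921). Postn and Tnc encode the matrix proteins periostin and tenascin C, Tagln an actin-binding protein of contractile cells, C3 a complement protein, Hamp the iron hormone hepcidin, and Timp1 an inhibitor of matrix metalloproteinases. The mean Reg profile itself divided into 4 low arrays, the 3 untreated arrays and treated array 2, and 5 high arrays, with a gap of 1.38 between them, so the correlation mostly measures that division of the arrays. The least alike genes were Rgs16 (r = -0.792), Spetex2l2 (-0.787) and Ambp (-0.754).

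Postn had the highest correlation and shows the shared pattern. It was 10.10, 7.08 and 8.78 on treated arrays 1, 2 and 3, 9.05, 9.15 and 9.27 on the withdrawal arrays and 6.70, 7.07 and 7.75 on the untreated arrays. Treated array 1 was the highest of all arrays, and treated array 2 lay inside the untreated range, whereas for Reg3g treated array 2, at 6.31, lay above the highest untreated value of 5.82. For all 10 of these genes treated array 1 was the highest array and treated array 2 the lowest treated array, and the withdrawal arrays lay above the untreated arrays without overlap. The choice by likeness to the Reg profile favours such an order, so it is no separate result and no test is given for these genes.

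**Figure D3:**
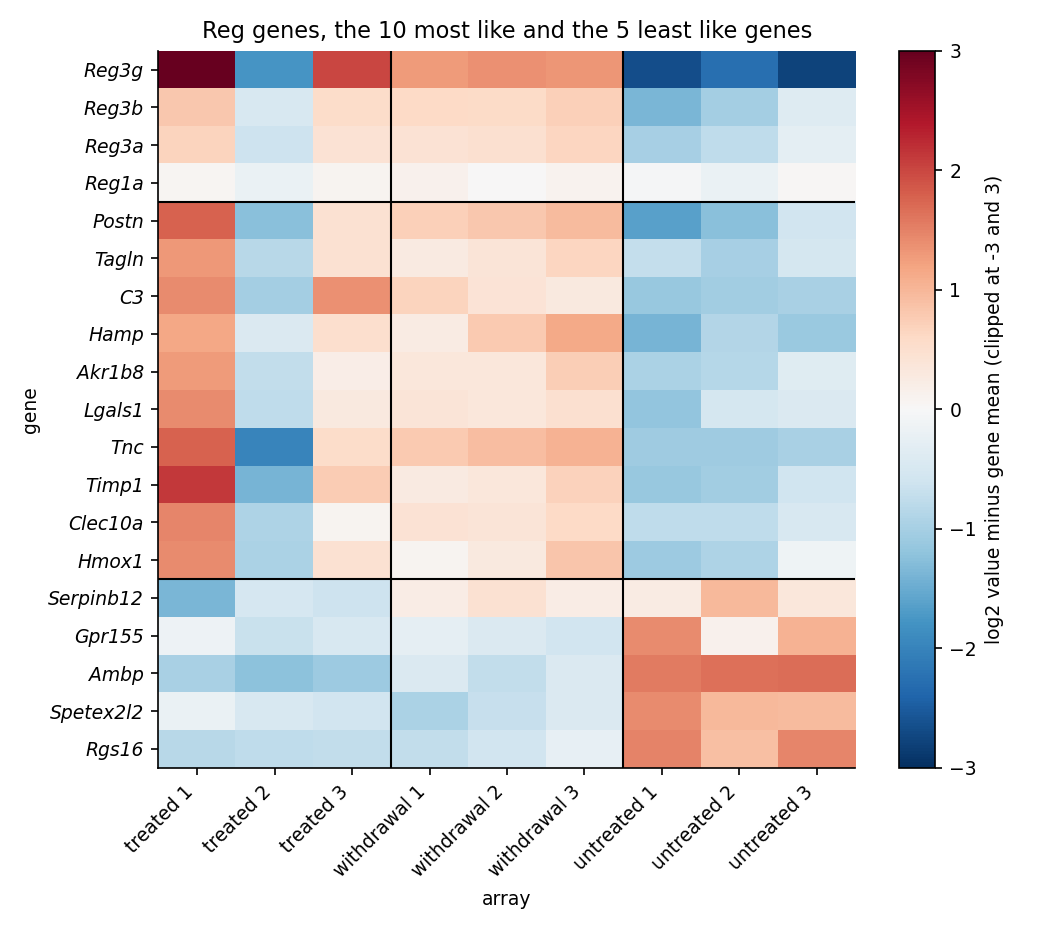
Heat map of the log2 value minus the gene's mean over the 9 arrays (colour, limited to -3 and 3), with genes in rows (4 Reg genes, the 10 most like and the 5 least like them) and arrays in columns. In Reg3g, Reg3b, Reg3a and the 10 like genes the untreated arrays and treated array 2 are low and the other 5 arrays high, and the 5 least like genes are mostly higher on the untreated arrays.

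Markers of other cells also differed between arrays, and their part in the Reg differences was not tested. Acinar markers, 31 genes, had mean log2 levels of 12.05 to 12.37 on the withdrawal arrays, 12.06 to 12.25 on the untreated arrays and 12.10 to 12.58 on the treated arrays, and these ranges overlapped. Their summed level was 18.09 to 18.30, 18.14 to 18.30 and 18.16 to 18.38 on the log2 scale in the same order. The brightest genes, such as Ctrb1, weigh most in this sum and lay near the top of the arrays' scale. A difference in the sum could therefore have gone unmeasured. In limma's fit of 6 arrays 2 of the 31 were called higher on the withdrawal arrays, Amy1 and Dmbt1, where 0.831% of all probe sets were. On treated arrays 1, 2 and 3 the amylase gene Amy1 was 7.15, 10.14 and 9.38, an order opposite to that of Reg3g. Array 2 was the highest treated array for 25 of the 31 acinar markers, and the share over all probe sets was not counted.

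Most macrophage markers were higher on the withdrawal than on the untreated arrays. Of 16 tested, 12 had withdrawal arrays wholly above untreated arrays, as 7.65% of all probe sets did, and their median difference was 0.45. In limma's fit of the 6 arrays compared 6 of the 16 were called higher, where 0.831% of all were, and in its fit of all 9 arrays 0 were called. Their mean log2 level was 9.06, 7.47 and 8.24 on treated arrays 1, 2 and 3, against 8.08 to 8.27 on the untreated and 8.53 to 8.78 on the withdrawal arrays. Treated array 3 lay inside the untreated range for the mean of these markers and above every withdrawal array for Reg3g. Whether macrophage content has a part in the Reg3g values was not tested. The summed level of the macrophage markers was 13.23 to 13.59 on the withdrawal arrays, 12.79 to 13.11 on the untreated arrays and 12.23 to 14.02 on the treated arrays. Treated array 2 was below all untreated arrays for 14 of the 16, and the share of all probe sets with that order was not counted. Cd68, a lysosomal protein of macrophages, was 7.47, 7.40 and 7.66 on the withdrawal arrays and 6.84, 6.77 and 7.11 on the untreated arrays.

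Stellate cell and matrix markers, a list added after the genes most like the Reg family were seen and sharing Postn, Tagln and Tnc with them, held 28 genes and are described without a test. Their mean log2 level was 9.68, 8.16 and 8.91 on treated arrays 1, 2 and 3, with array 3 inside the untreated range of 8.72 to 9.10. On the withdrawal arrays this mean was 9.13 to 9.35, above the untreated range. The median withdrawal-minus-untreated difference of the 28 genes was 0.15, against -0.02 over all probe sets. Their summed level was 14.65 to 14.86 on the withdrawal arrays, 14.25 to 14.74 on the untreated arrays and 13.84 to 15.26 on the treated arrays. Fn1, which encodes fibronectin, went against that median, at -0.97 in withdrawal minus untreated, and was singled out after its value was seen. Treated array 2 was the lowest treated array for 27 of the 28 and below all untreated arrays for 24. Neither share was counted over all probe sets.

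Duct markers had a median difference of 0.04 between withdrawal and untreated arrays, with Ambp the only 1 of 16 called, lower by limma in both fits. Over all probe sets 1.56% were called lower in the fit of 6 arrays, and 0.159% were called in either direction in the fit of 9. The duct keratin Krt19 differed by 0.04. Beta cell markers ran from 9.76 to 9.97 in mean log2 level on the withdrawal arrays, 9.91 to 10.26 on the untreated arrays and 10.68 to 10.85 on the treated arrays, where Reg3g spread most. Of 17 beta cell genes 0 were called between withdrawal and untreated arrays in the fit of all 9 arrays, where 0.159% of all probe sets were. In the fit of 6 arrays 1 was called lower, where 1.56% of all were. The median of that comparison was -0.31, against -0.02 over all probe sets. In the fit of all 9 arrays 11 were called higher on the treated than on the untreated arrays, where 20.9% of all probe sets were, with a median of 0.68. After quantile normalization 4 of the 17 were called higher, where 7.75% of all were, and the median was 0.26.

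**Figure D4:**
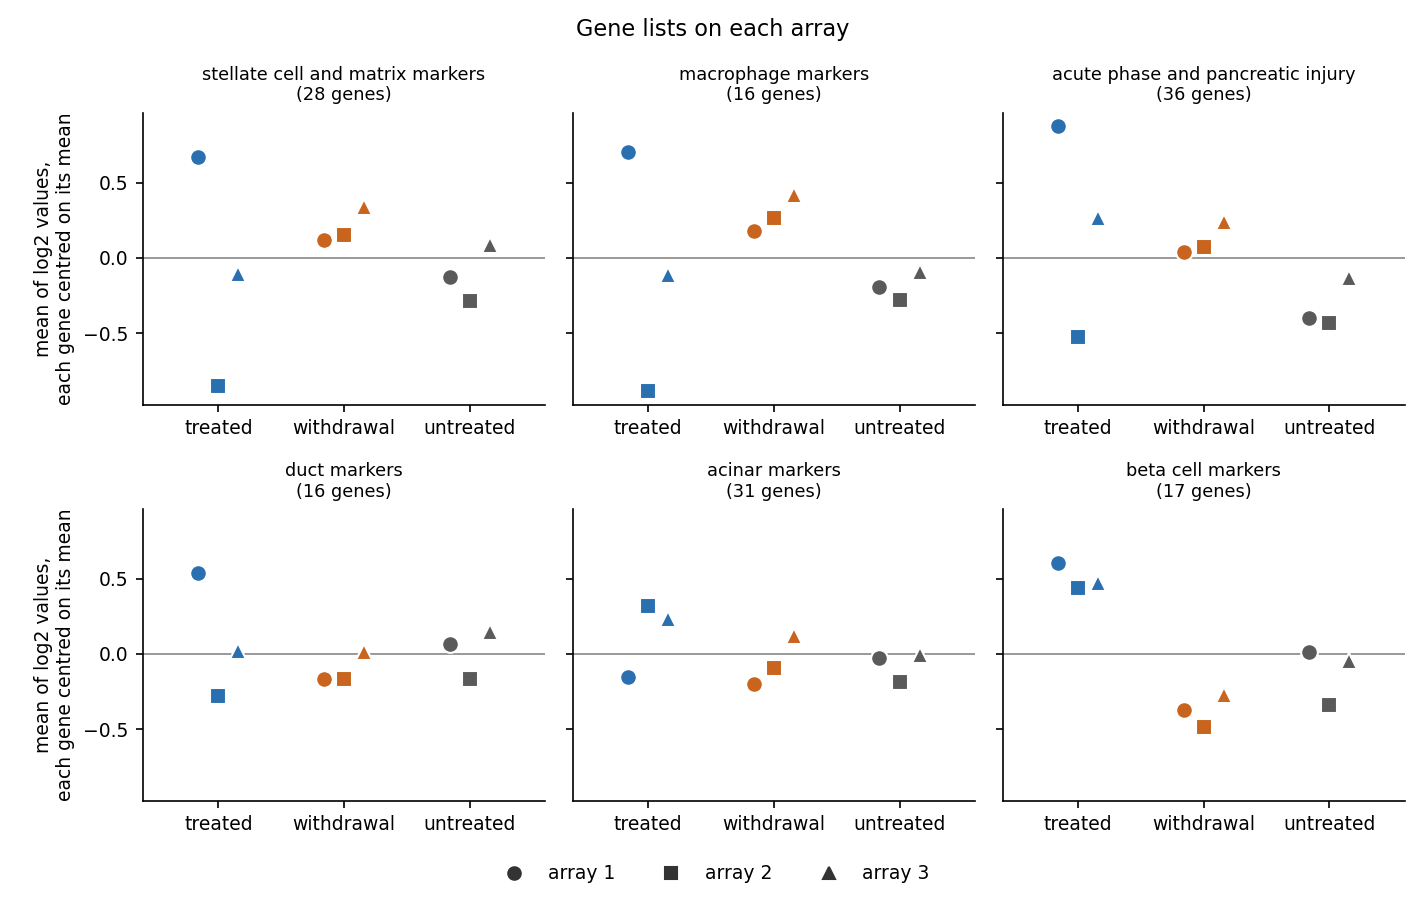
Mean log2 level of 6 marker lists minus the list's mean over the 9 arrays (vertical axis), 1 panel a list and 1 point an array, by group (horizontal axis). Macrophage markers and stellate cell and matrix markers are lowest on treated array 2 and highest on treated array 1, while acinar markers are highest on treated array 2.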

How the data were processed

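Affymetrix Rat Genome 230 2.0 arrays measured islet RNA in 9 samples. The deposited table of the authors held 31099 probe sets as values taken to be log2 from their range, and the submitters' processing notes name RMA and MAS5 without roles or versions. The number of arrays limits the precision. The 57 control probe sets were left out, as were the lowest 33.3% by mean log2 (below 4.952), which left 20695. Of the probe sets 20826 had 1 gene symbol in the platform annotation, 436 several and 9780 none listed, and 20758 were updated by gene number to GRCr8 names.

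Differences came from limma 3.58.1 in R 4.3.3 (lmFit, eBayes, a term per group), with Benjamini-Hochberg adjustment over all 20695 and adjusted p under 0.05 as the threshold. The fit of all 9 arrays was also run on simulated data, with the same SD on every array of a probe set. It recovered 76% to 79% of differences of 1 and 97% to 100% of differences of 2 on the log2 scale. Groups of unequal spread, as for Reg3g, were not simulated, so the simulation cannot check that case. A listed gene was read by its brightest probe set. The members and lists were chosen with earlier results of these data known, and the stellate list after seeing the genes most like the family. Named genes were every Reg probe set, the 10 most like genes, up to 4 of each list by p, and a fixed set. Not all of these were printed. Alternatives were quantile normalization, other filters, eBayes settings, array weights, fits of the 6 arrays of a comparison alone, a block for the replicate number, and leaving out each array. Python 3.11.15, pandas 2.3.3 and matplotlib 3.10.9 drew figures.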

Additional observations from a re-analysis of the deposited data

How the results depend on the processing

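The withdrawal-minus-untreated differences of Reg3g, Reg3b, Reg3a and Reg1a kept their sign under every alternative run. The count of Reg probe sets called in that comparison was 0 and became 3 with array weights, 3 in the fit of the 6 arrays compared, 3 in that fit after quantile normalization (added after the data were seen) and 1 with the replicate number as a block (Reg3b, limma adjusted p 0.0426), and 0 to 3 with single arrays left out, 3 without treated array 1 or treated array 2. Over all probe sets that comparison called 33, and 87 after quantile normalization, 3275 with array weights, 494 with 6 arrays, 559 with both, 50 with the block and 7 to 398 with single arrays left out. With 6 arrays it called 185, 116 and 433 without withdrawal array 1, 2 and 3, and 188, 2451 and 249 without untreated array 1, 2 and 3. Treated minus untreated called 5817, 3559 after quantile normalization, 3209 with 6 arrays and 2033 to 6319 with single arrays left out. Its Reg count of 3 became 1 after quantile normalization, and 1 to 3 with single arrays left out. Withdrawal minus treated called 9057, 6032 after quantile normalization and 5587 to 9511 with single arrays left out, with 0 to 1 Reg probe sets. Signs turned for Reg1a in treated minus untreated without untreated array 2 (-0.0094, and up to 0.145 without another array), and for Reg3a (-0.034 to 0.618), Reg3b (-0.051 to 0.583) and Reg3g (-1.42 to 1.22) in withdrawal minus treated, each lowest without treated array 2 and highest without treated array 1. Quantile normalization turned the median of acute phase genes (0.44), acinar (0.048), duct (0.10) and intestinal markers (0.051, and 0.022 with the mean over probe sets) in withdrawal minus treated, and of acinar (-0.037), duct (-0.022) and macrophage markers (-0.24) in treated minus untreated; the cause was not tested. Of 232 alternatives for the 12 Reg differences 179 kept sign and side of the threshold. The labels do not say whether same-numbered arrays belong together, and the values did not settle it (9 pairs correlated from -0.28 to 0.50, 5 over 0.1). Offsets for linear values were not run. Brightness near the top of the scale limits Reg1a, Reg3a, Reg3b and the summed level of the acinar markers.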

Other observations

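Other lectins with a C-type fold, which share the Reg proteins' fold but mostly serve as receptors, gave a smaller shift. Of 16 tested, 0 were called between withdrawal and untreated arrays in limma's fit of all 9 arrays and 3 were called higher in its fit of the 6 arrays compared, where 0.831% of all probe sets were, with a median difference of 0.15. Mrc1, the macrophage mannose receptor, was 6.70, 6.73 and 6.90 on the withdrawal arrays and 5.47, 5.22 and 5.64 on the untreated arrays. Of 11 lymphocyte markers 1 was called higher in the fit of 6 arrays, with a median of 0.18, and of 4 neutrophil markers tested 0 were called, with a median of 0.26. Of 10 intestinal epithelium markers 1 was called higher in that fit, with a median of 0.10. Of 8 markers of other islet hormone cells 1 was called lower in it, where 1.56% of all probe sets were, with a median of -0.10. The neutrophil genes S100a8 and S100a9 and the intestinal gene Fabp2 were too dim to be tested, with highest values of 3.17, 4.33 and 3.66.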
